A study of Mus musculus with 40 samples.

Results

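The fragments recovered from reporter-negative cells were followed over 5 stages of blood cell development, from embryonic stem (ES) cells to hematopoietic progenitors. Every library with Negative in its title was taken, which gave 10 of the 40 lists, 1 for each stage in each of 2 replicates. These 10 lists held 103361 of the 458486 fragments deposited, and 95548 of the 354627 different ones. In this screen, pieces of open chromatin cut out by the Tn5 transposase were cloned into a plasmid upstream of Venus-YFP driven by the minimal promoter of HSP68. Mouse HM-1 ES cells, which lack a working HPRT gene, took up the mixed plasmid pool at that locus, and the integration repaired the gene, so that each selected cell should carry 1 reporter. The cells were then differentiated in serum culture and sorted by surface markers and by YFP into Negative, Low, Medium and High gates. The limit of the Negative gate had been set with a line whose reporter carried the minimal promoter and no inserted fragment.

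The 5 groups were ES cells, FLK1+ hemangioblast-like cells (HB), KIT+ TIE2+ CD41- hemogenic endothelium (HE1), KIT+ TIE2+ CD41+ hemogenic endothelium (HE2) and KIT+ TIE2- CD41+ progenitors (HP). All of them carried the reporter cassette and came from the same ES cell line. The method has the selected cells of a transfection differentiated into the later stages. All stages of a replicate number are taken here to share 1 such pool, which the sample titles do not state. The libraries hold amplified inserts and no RNA, so the stage names could not be checked against expressed markers. One stage of 1 replicate is called a sort here, and fragments from the Low, Medium or High gate are called positive. The p-values measure the spread between these sorts only.

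An enhancer is a stretch of DNA that raises transcription from a promoter when the factors that bind it are present. A fragment may therefore be silent in one cell type and active in another, and a fragment cut from part of an enhancer can lack the sites it needs. During blood formation, mesoderm gives rise to endothelium, and a hemogenic subset of it releases blood progenitors as RUNX1 rises and the endothelial program is repressed. Each deposited fragment is a pair of coordinates with no read count. A fragment listed in the Negative gate was amplified from at least some YFP-negative cells, and may also be listed in a positive gate.

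Sequences are shown first for the fragments on which the account of persistence and of drop-out turns. They are the mm10 (GRCm38) reference sequence of the plus strand, 5′ to 3′, and were not read from the cells. Capitals mark matches, on either strand, to the letters searched for 10 factors, none of which contains another. These were TGACTCA for AP-1, TGTGGT for RUNX factors, GAGGAAGT for PU.1, AGATAA for GATA factors, GGAATG for TEAD factors, ACAAAGG or else ACAATGG for SOX factors, ATGCAAAT for OCT factors, CAGCTG for the E-box, TTGCGCAA for CEBP factors and TGGGAA for RBPJ. The nearest start is named to place a fragment and is not shown to be its target. The first 4 were listed as Negative at all 5 stages of replicate 2. They lay at chr6:53880977-53881205 in an intron, 60266 bp upstream of the nearest annotated start, that of Tril; at chr2:181231180-181231371 in a coding exon, 10751 bp downstream of the start of Helz2; at chr9:30003678-30003861 between genes, 40501 bp upstream of Ntm; and at chr7:26776202-26776418 between genes, 19168 bp downstream of the start of Cyp2b19.
Tril, Negative in 6 lists: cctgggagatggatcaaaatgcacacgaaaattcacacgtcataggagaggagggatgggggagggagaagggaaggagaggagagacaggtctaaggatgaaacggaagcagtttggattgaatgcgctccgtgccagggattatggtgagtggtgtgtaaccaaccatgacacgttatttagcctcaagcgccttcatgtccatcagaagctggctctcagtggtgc
Helz2, Negative in 5 lists: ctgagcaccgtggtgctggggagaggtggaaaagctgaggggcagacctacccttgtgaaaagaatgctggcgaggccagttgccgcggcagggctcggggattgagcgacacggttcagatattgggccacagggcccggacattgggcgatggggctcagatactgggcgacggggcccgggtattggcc
Ntm, Negative in 5 lists: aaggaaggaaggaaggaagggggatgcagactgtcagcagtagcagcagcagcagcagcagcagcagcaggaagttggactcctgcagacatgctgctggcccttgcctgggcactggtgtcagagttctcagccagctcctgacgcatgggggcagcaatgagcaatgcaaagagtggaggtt
Cyp2b19, Negative in 5 lists: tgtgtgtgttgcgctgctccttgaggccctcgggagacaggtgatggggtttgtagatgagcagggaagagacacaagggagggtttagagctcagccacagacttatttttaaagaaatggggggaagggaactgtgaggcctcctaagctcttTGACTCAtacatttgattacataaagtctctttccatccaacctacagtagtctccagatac
Of these 4, only the Cyp2b19 fragment held any of the motifs searched, an AP-1 match, which 7.97% of all 76717 fragments of 180 to 230 bases held. The 4 do not stand for all persistent fragments. Among those described below and not shown, the Rfpl4b fragment held a RUNX and a PU.1 match. The Ube2u fragment held a TEAD match and the Dyrk4 fragment a RUNX match, which 15.2% of fragments of 180 to 230 bases held. Those near Rfpl4b and Ube2u were longer, at 376 and 350 bases. A match is a description of letters and does not show a binding site.

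The next 3 fragments were Negative at ES or HB of replicate 1 and were found later only in positive gates. They lay at chr3:89456833-89456925 in an intron, 2239 bp upstream of the start of Pmvk; at chr8:83783301-83783425 between genes, 42052 bp upstream of Adgre5; and at chr9:31972186-31972314 between genes, 44375 bp upstream of Arhgap32.
Pmvk, dropped from the Negative gate: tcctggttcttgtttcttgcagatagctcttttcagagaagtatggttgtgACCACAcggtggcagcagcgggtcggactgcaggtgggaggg
Adgre5, dropped from the Negative gate: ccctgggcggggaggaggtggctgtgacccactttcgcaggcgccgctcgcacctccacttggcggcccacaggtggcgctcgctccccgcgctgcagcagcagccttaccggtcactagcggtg
Arhgap32, dropped from the Negative gate: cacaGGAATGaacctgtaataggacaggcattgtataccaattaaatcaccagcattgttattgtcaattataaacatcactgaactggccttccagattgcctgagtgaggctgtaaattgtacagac
The Pmvk fragment held 1 RUNX match and the Arhgap32 fragment 1 TEAD match. Of all 76935 fragments of 90 to 130 bases, 10.4% held the RUNX letters and 7.68% the TEAD letters. The last sequence, at chr19:11800494-11800770, comes from an intron of the Stx3 neighbourhood, 18759 bp downstream of its start. Stx3 was the single locus past the test for a shift between gates, and its Negative fragments were almost wholly length variants of this sequence. Here the capitals mark the longest unbroken run of the AC repeat, 24 bases long.
Stx3, longest of 27 variants: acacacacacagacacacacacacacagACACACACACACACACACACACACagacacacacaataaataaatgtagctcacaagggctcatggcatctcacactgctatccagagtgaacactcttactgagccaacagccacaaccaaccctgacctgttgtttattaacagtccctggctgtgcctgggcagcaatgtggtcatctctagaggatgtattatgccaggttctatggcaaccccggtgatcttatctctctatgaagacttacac

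The Negative list of replicate 1 numbered 10352 fragments for ES, 8426 for HB, 41374 for HE1, 8430 for HE2 and 8458 for HP. That of replicate 2 numbered 2814 for ES, 3056 for HB, 2773 for HE1, 2727 for HE2 and 14951 for HP. The HE1 list of replicate 1 and the HP list of replicate 2 were thus each several times the size of the other lists of their replicate. Some libraries stood apart in ways that touch the comparisons. The HE1 Negative list of replicate 1 shared 69.8% of the fragments of the smaller list with the Medium list of the same sort, where the other Negative lists of that replicate shared 0 to 4.49% with theirs. At HP of replicate 1, the Negative gate shared 0 of its 8458 fragments with the other gates, which allows a share of up to 0.0355%. The HE1 Negative fragments were also listed in a positive gate of the same sort for 71.3% in replicate 1 and 55.8% in replicate 2. The replicates also differed in mean GC content, 55.0 to 57.1% in replicate 1 against 50.2 to 50.9% in replicate 2, and in median length, 165 to 186 against 201 to 212 bp. Fragments with both ends within 5 bases of another in the same list were more common in replicate 2, where collapsing them left 81.7 to 88.2% of each list, than in replicate 1, where it left 95.5 to 98.2%.

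Few identical fragments persisted. In replicate 1, 72710 of 74784 different Negative fragments were seen at 1 stage, 1910 at 2 stages, 146 at 3, 18 at 4 and 0 at all 5. In replicate 2, 18394 of 21096 were seen at 1 stage, 1162 at 2, 797 at 3, 503 at 4 and 240 at all 5. Recurrence in the gate at more than 1 stage was thus seen for 2.77% of fragments in replicate 1 and for 12.8% in replicate 2. Without the HE1 list, replicate 1 had 605 fragments at 2 stages, 30 at 3 and 0 at all 4. Only 332 fragments were Negative in both replicates, and the most Negative lists that any fragment reached was 6 of 10, which 3 fragments did.

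Among all pairs of Negative lists, identical fragments made up 0.899 to 6.61% of the smaller list within replicate 1, 17.6 to 53.1% within replicate 2 and 0.0712 to 1.23% between replicates. Within replicate 1 the 4 highest values all involved HE1, and without it the highest was 1.97%, between ES and HB. Within replicate 2 the 3 latest stages shared most, and HE1 with HE2 reached 53.1%. Lists of different stages shared 17.6% on average within a replicate and 0.442% between replicates. The difference of 17.1 percentage points had p = 0.0625 in a two-sided exact permutation test of the replicate numbers, the smallest p this design allows.

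**Figure D1:**
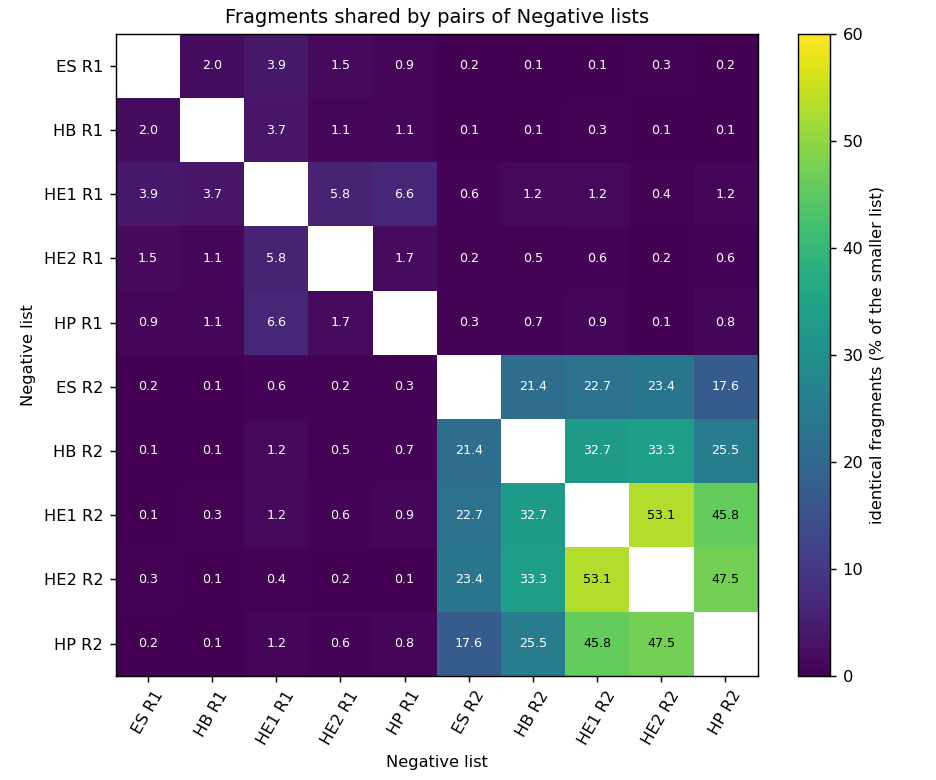
Each cell gives the fragments with identical ends shared by 2 Negative lists, in percent of the smaller list, and R1 and R2 are the replicates. Values lie between 17.6 and 53.1% within replicate 2 and do not pass 6.61% within replicate 1.

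Successive stages shared more Negative fragments than stages further apart. In replicate 1 the mean was 3.29% for successive and 2.51% for other pairs, and in replicate 2 it was 38.7% against 28.0%. The difference, averaged over the replicates, was 5.71 percentage points (p = 0.0400, two-sided exact permutation of the stage order). It was not stable. Without HE2 of replicate 2 it was -0.0250, and leaving out ES, HB or HE2 of replicate 1, or ES, HE1 or HP of replicate 2, gave 5.02 to 5.71 with exact p of 0.05 to 0.335.

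Negative lists shared more fragments with each other than with positive gates. They were set against the positive lists of other stages, which show how often a fragment recurs in any gate. In replicate 1, pairs of Negative lists shared 2.82% ± 2.07 (SD, 10 pairs) and Negative lists shared 2.46% on average with positive lists of other stages. In replicate 2 the corresponding values were 32.3% ± 12.5 (SD, 10 pairs) and 22.2%. The mean excess of 5.25 percentage points had p = 0.0132 in a one-sided exact permutation of the gate labels within sorts. The excess was 10.1 in replicate 2 (p = 0.0127) and 0.360 in replicate 1 (p = 0.164), both by the same exact test. Without HP of replicate 2, the largest list of its replicate, it was 3.89 (exact p = 0.0667). Low lists of replicate 2 shared 33.4% on average among themselves, beside the 32.3% of Negative lists. In replicate 1, High lists shared 4.64% and Medium lists 3.14% among themselves, both above the 2.82% of Negative lists.

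Fragments that stayed in the Negative gate were rarely silent alone. The 240 fragments Negative at all 5 stages of replicate 2 were all found in at least 1 of the 15 positive lists of that replicate, with a median of 7 and a range of 1 to 14. Of the 18394 fragments Negative at 1 stage of replicate 2, 15991 (86.9%) were in no positive list. In between, the share found in no positive list was 23.8% at 2 Negative stages, 9.54% at 3 and 1.59% at 4. Replicate 1 showed the same order, from 51.9% at 1 stage through 32.6% and 15.1% to 0 of 18 at 4 stages. Without its HE1 Negative list, which was left out after the data were seen, the shares in replicate 1 were 80.9% at 1 stage, 46.3% at 2 and 16.7% at 3. The number of gates and stages in which a fragment was seen thus moved together, and the lists hold no counts from which the abundance of an insert could be told apart from its activity. Fragments with near copies were frequent among the persistent ones. Of the 240, 60% had another fragment with both ends within 5 bases in some list, against 25.8% of those Negative at 1 stage. The 240 fell into 223 such clusters, near 220 genes.

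**Figure D2:**
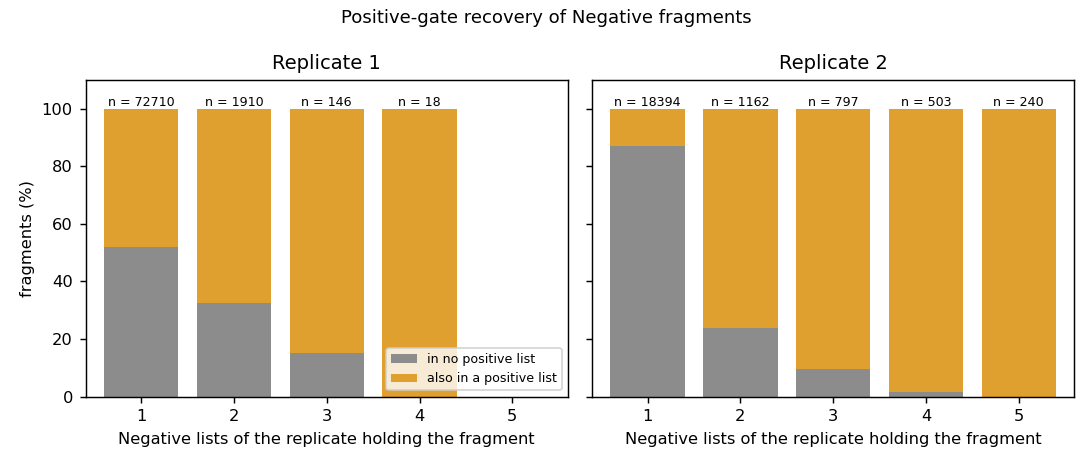
Bars show, for each replicate, the percent of Negative fragments found in no positive list (grey) or in at least 1 positive list (orange) of the same replicate, by the number of Negative lists that held them. The grey share falls from 86.9 to 0% in replicate 2, and replicate 1 had no fragment in 5 lists.

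In place and GC content the 240 persistent fragments had values close to those of fragments Negative at 1 stage of replicate 2. Their mean GC content was 50.4% against 50.2%, and their median length was 189.5 against 203 bp. Introns held 45.8% against 46.6%, spaces between genes 46.7% against 47.6%, and exons 7.08% against 5.74%. The median distance to an annotated start was 23469 against 23847 bp. The E-box letters were present in 9.17% of the persistent fragments against 14.0%, and the GATA letters in 7.92% against 10.4%. The OCT letters were present in 0% against 1.02%, and the TEAD letters in 12.9% against 13.0%. These motif shares were not adjusted for length. These values are descriptions, with no test.

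Among the 240, the 8 in the most Negative lists over both replicates and then the fewest positive lists were chosen, and 7 of them are described. The Tril fragment (Tril acts with Toll-like receptors) led with 6 Negative lists, HE1 of replicate 1 and all of replicate 2. It was also in 6 positive lists, mostly Low ones. Those near Rfpl4b, Helz2 (a helicase that acts as a coactivator) and Ntm (a neuronal cell adhesion protein) were each in 1 positive list only. For the Rfpl4b fragment this was HP Medium, for Helz2 HE1 Low and for Ntm HP Low. Those near Ube2u, Dyrk4 and Cyp2b19 (a cytochrome P450) were each in 2 positive lists. The Dyrk4 fragment was found in ES Low and HE2 High, so that it was Negative at every stage and reached the brightest gate at 1 of them. The other fragments in 6 Negative lists lay near Gm26644 and Tamm41. They were not among the 240, and were in 14 and 12 positive lists.

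Merging overlaps over the 10 lists left 36679 regions, and 20768 of them (56.6%) consisted of 1 fragment. The median region was 216 bp wide. A Negative fragment was present in 1 list for 24678 regions, in 2 for 5549, in 3 for 3178, in 4 for 1836, in 5 for 948, in 6 for 324, in 7 for 88, in 8 for 43, in 9 for 27 and in all 10 for 8. A region is in every list that holds any of its fragments, so regions recur at least as much as identical fragments by construction. Negative fragments of both replicates fell in 2594 regions, or 15.01% of the regions of replicate 2 and 11.8% of those of replicate 1. Of all regions, 11990 (32.7%) held no positive fragment of the 30 positive lists. Nearly all of these, 11750, were Negative in a single list, and none was Negative in more than 4. The share without any positive fragment was 47.6% among regions in 1 Negative list, 3.48% at 2, 1.35% at 3 and 0.218% at 4. The replicates differed in this, since regions in 1 Negative list of replicate 1 were without a positive fragment in 12.7% of cases and those in 1 list of replicate 2 in 81.2%. The width of a region moved with this, from a median of 192 bp at 1 list to 859.5 bp at 10.

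The 8 regions with Negative fragments in all 10 lists included those near Setd1b (a histone methyltransferase), Gprc5c, Mier3, Zmiz2, Zfp692, Hmox1 (heme oxygenase) and Bsn (a presynaptic scaffold protein). At Setd1b, chr5:123137825-123138981, 3799 bp upstream of its start, the Negative lists held 7, 1, 7, 2 and 2 fragments from ES to HP in replicate 1 and 1, 1, 2, 2 and 4 in replicate 2. The positive gates held 12, 7, 14, 20 and 13 there in replicate 1 and 2, 6, 3, 3 and 1 in replicate 2. Positive fragments were thus present in every sort, and made up 73.6% of the region. At Hmox1, chr8:75083568-75084340, 9660 bp upstream, Negative fragments numbered 5, 3, 10, 2 and 1 in replicate 1 and 1 at each stage of replicate 2. The region between genes at Mier3, chr13:111725029-111725953, held 82 Negative and 248 positive fragments. Across the 8 regions the positive share was 73.6 to 81.5%. The Negative share over all gene neighbourhoods was 23.2%, so these always-represented regions were close to the background balance of the screen. Regions near Arhgap23 and Slc34a1 followed with 9 lists and positive shares of 69.1% and 70.7%.

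The regions that came nearest to being silent throughout, by values seen before they were picked, were 4 with Negative fragments in 4 lists and no positive fragment anywhere. They lay near Mark1, 2410004I01Rik, Bmp6 and Gucy1a2. Each was represented by 1 fragment in each of 4 lists of replicate 2 and by none in replicate 1. At Bmp6, a ligand of the BMP family, the region was chr13:38384173-38384266 in an intron, and its lists were HB, HE1, HE2 and HP.

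Regions of the same stage did not overlap between replicates beyond the level of unlike stages. With every list thinned to 2727 fragments, the overlap of regions (Jaccard index) was 2.01% ± 0.268 (SD, n = 5 stage pairs) for the same stage and 1.97% ± 0.147 (SD, 20 pairs) for unlike stages. This gap of 0.0340 percentage points had p = 0.175 in a one-sided exact permutation over the matchings of stages. Leaving out single lists moved it between -0.0502 and 0.0991. Without HE1 of replicate 2 it was 0.0737 with exact p = 0.0417, and it fell below 0 without HB or HP of replicate 1 or HB of replicate 2.

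A silent fragment seen again at the next stage was more often silent again than an active one was. The fragments of a stage found in the Negative gate alone were compared with those found in positive gates alone, among fragments recovered in any gate of the next stage. From ES to HB of replicate 1, 115 of 524 recovered Negative fragments (21.9%) and 330 of 1632 positive ones (20.2%) were in the Negative gate of HB. From HB to HE1 the values were 39.8% and 29.5%, from HE1 to HE2 21.0% and 10.7%, and from HE2 to HP 27.5% and 15.6%. In replicate 2 they were 57.9% and 21.2% from ES to HB, 55.2% and 25.2% from HB to HE1, 78.0% and 37.6% from HE1 to HE2, and 78.4% and 61.4% from HE2 to HP. The Negative fragments were higher in 8 of 8 steps. The mean difference was 8.53 ± 4.59 percentage points in replicate 1 and 31.0 ± 10.3 in replicate 2 (SD, n = 4 steps each), and 19.8 over both. The two-sided exact sign-flip permutation p was 0.0078125, the smallest that 8 steps allow, and steps that follow each other share a library. The 4 steps of a replicate are also taken to follow 1 pool of inserts. The 8 steps are thus not independent, and this p does not measure the spread between pools.

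**Figure D3:**
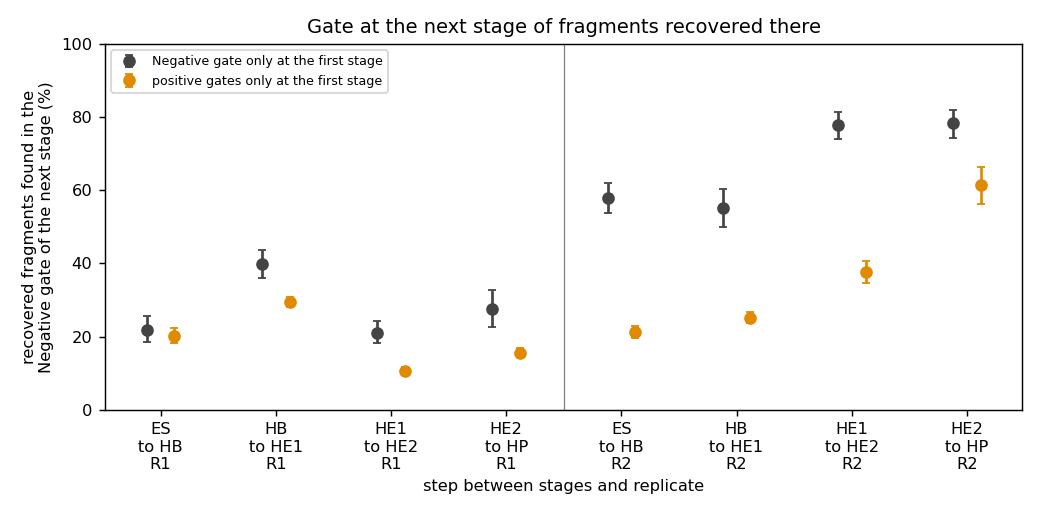
Points give, for each step between stages in replicates R1 and R2, the percent of recovered fragments that were in the Negative gate of the next stage, with 95% Wilson intervals that cover counting error only. Fragments first seen in the Negative gate alone (dark) lie above those first seen in positive gates alone (orange) at all 8 steps, with overlapping intervals at ES to HB of replicate 1.

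The same difference with another gate in the place of Negative was smaller and less regular. It was 8.82 percentage points for High (5 of 8 steps above 0, exact permutation p = 0.141), 3.33 for Low (6 of 8, exact permutation p = 0.273) and -3.79 for Medium (3 of 8, exact permutation p = 0.227). Whether the Negative gate exceeds these was not tested. In replicate 1, High reached 8.03 ± 5.77 (SD, n = 4 steps), close to the 8.53 of Negative. The result did not carry over to regions merged from all 40 lists. In replicate 1 the regions seen in the Negative gate alone were less often Negative at the next stage than those seen in positive gates alone, with differences between -3.03 and -7.63 percentage points in the 4 steps. In replicate 2 they were more often so, by 10.8 to 40.2, and the mean of 10.6 had p = 0.1875 in the same exact permutation test. Without the HE1 and HP sorts of replicate 1, which stood apart, the difference between fragments was 25.2 with 5 steps left (exact permutation p = 0.0625, the smallest they allow).

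Negative fragments were often not found again at any later stage. In replicate 1 this held for 79.9% of those of ES, 83.4% of HB, 88.6% of HE1 and 94.8% of HE2. In replicate 2 it held for 51.0%, 46.9%, 30.3% and 44.0%, so that more than 1 in 2 were found again from every stage but ES. Fewer later stages were left for HE2 than for ES. Positive fragments were often not found again either. At the next stage, fragments of the Negative gate alone were recovered for 5.79% on average in replicate 1 and 29.8% in replicate 2. For fragments of positive gates alone these means were 6.94% and 17.8%. Loss of an insert and too shallow a library cannot be told apart in lists without counts, and the part of any filter on the open chromatin of a stage was not tested. Among fragments of ES or HB seen in Negative lists and no positive list there, 2196 of 16584 in replicate 1 and 655 of 3152 in replicate 2 were found at HE1, HE2 or HP. Of these, 69.0% in replicate 1 and 41.1% in replicate 2 were then in positive gates alone. Another 11.6% and 26.4% were in the Negative gate alone, and 19.4% and 32.5% were in both. In replicate 1 most of the early silent fragments that were seen again were then listed in positive gates alone. In replicate 2 more were listed in the Negative gate, alone or beside a positive gate, than in positive gates alone. Absence from a list without counts does not show that a fragment left the gate. These shares were not tested against the Negative share of the later sorts. The Negative list was 11.1 to 36.4% of the fragments of these later sorts in replicate 1, and 7.70% at HE1, 55.6% at HE2 and 78.0% at HP in replicate 2.

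Of the fragments found later in positive gates alone, the 5 in the most positive lists were all of replicate 1. The one near Pmvk, a mevalonate pathway enzyme, was Negative at ES and then in HE1 Low, HE1 High, HE2 Low, HE2 Medium and HP Medium. The one near Adgre5, an adhesion receptor of leukocytes, was Negative at both ES and HB, and later in all 3 positive gates of HE1 and in HE2 Medium and High. It was also in the High gate of HB in replicate 2. The one near Arhgap32 was Negative at ES and was in all 3 positive gates of HE2, in HE1 Low and in HP High. Those near Mrm1 and Prrc2b were in 4 later positive lists each, and both reached HP High. Each of these 5 spread over 2 or 3 positive gates. More than 1 gate was fixed by the choice for most positive lists, since 1 gate has only 3 later lists, at HE1, HE2 and HP.

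Of the 434 regions with Negative fragments at ES or HB in both replicates, 363 (83.6%) also had one at HE2 or HP. Another 53 (12.2%) had only positive fragments there, and 18 had none. The choice of regions Negative in both replicates favours those in many lists, which were wider (median 192 bp at 1 list, 859.5 bp at 10). The same share over all regions was not taken, so 83.6% does not measure lasting silence. The one of the 53 with most early Negative fragments, 9, lay at chr15:101238789-101239484, 13940 bp upstream of A330009N23Rik. It held 3 Negative fragments at ES, 1 at HB and 4 at HE1 in replicate 1, and 3 at ES and 2 at HB in replicate 2, with 0 in the other lists. At HE2 and HP its positive gates held 4 and 2 fragments in replicate 1 and 1 and 0 in replicate 2. Next was chr4:141239167-141239718, 213 bp upstream of Arhgef19 and in a non-coding part of an exon, with 4 Negative fragments at ES, 2 at HB and 3 at HE1 of replicate 1 and 1 at HB of replicate 2. It held 13 positive fragments at HE2 and 6 at HP of replicate 1, and none of replicate 2. The other 3 lay near Pou2f1 (an octamer-binding factor), Tmem220 and Gm34643. In all 5, HE1 of replicate 1 still held 3 or 4 Negative fragments. In replicate 2, HE1 held 1 at Tmem220 and 1 at Gm34643 and 0 at the other regions.

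Fragments were then grouped by the nearest annotated start, and the number of Negative fragments per 10000 of each list was tested for a trend along the stages. None of 1269 neighbourhoods with at least 20 Negative fragments passed (0%, limma with Benjamini-Hochberg adjustment), and 23 had an unadjusted p under 0.05. This fit held no term for the replicate, and the standard errors given for single genes come from it. With the replicate as a block, 0 passed in limma and 93 had an unadjusted p under 0.05. The estimates were above 0 for 756 and below 0 for 513, with a median of 0.05 on the log2 scale per stage. The lowest p for a rise belonged to Stx3, Ipo11-lrrc70 and Cmip, and for a fall to Prrc2b, Kif14 and A330009N23Rik, all with adjusted p = 0.996 in limma. With the block, their adjusted p in limma was 0.333 to 0.600. Prrc2b had 11, 13, 32, 8 and 3 Negative fragments from ES to HP in replicate 1 and 4, 3, 1, 0 and 5 in replicate 2. Its estimate was -0.52 ± 0.21 (SE) per stage on the log2(fragments per 10000 + 1) scale. In replicate 1 HE2 and HP lay below ES and HB, and in replicate 2 the 5 fragments of HP came from the largest list, with 14951 fragments.

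The balance between Negative and positive fragments of a neighbourhood, relative to the whole sort, was tested in the same way. Of 1266 neighbourhoods 1 was called (0.0790%), and 109 had an unadjusted p under 0.05. The called one was Stx3, a syntaxin of vesicle fusion, whose balance rose by 1.62 ± 0.29 (SE) per stage on the log2 scale (limma adjusted p = 0.00985, and 0.00733 with the replicate as a block). It was lost, with 0 called, with an offset of 2 and without ES or HP of either replicate. Its Negative lists held 0, 0, 30, 2 and 18 fragments from ES to HP in replicate 1 and 0, 0, 0, 0 and 13 in replicate 2. Its positive gates held 15, 5, 5, 3 and 4 in replicate 1 and 10, 3, 27, 0 and 0 in replicate 2. The lowest p for a fall belonged to Cx3cl1, a chemokine, with limma adjusted p = 0.150, then Map4k4 and Wnt10a, a Wnt ligand, with 0.334 each, and none passed.

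The Negative side of the shift at Stx3 came almost wholly from 1 stretch of DNA. Of its 63 Negative entries over the 10 lists, 60 belonged to a cluster of 27 fragments of 227 to 277 bp that all ended at the same base. Their starts lay 2 bases apart in 24 of 26 steps, along the AC repeat at the start of the sequence shown above. In replicate 1 this cluster was in the High gate at ES (13 variants) and in the Negative gate at HE1 (27), HE2 (2) and HP (18). In replicate 2 it was in the Medium gate at ES (10), the Low gate at HB (3) and HE1 (26), and the Negative gate at HP (13). In each of the 8 sorts that held it, it was in 1 gate only, positive at ES and Negative at HP in both replicates. The positive entries of Stx3 at HB (5), HE1 (5), HE2 (3) and HP (4) of replicate 1 lay outside the cluster. With fragments within 5 bases counted as 1 cluster, Stx3 fell below the filter of 20 Negative fragments, with 7 clusters left, and 0 of 1150 neighbourhoods passed (lowest adjusted p = 0.295 in limma). It was the largest of 22 clusters with 10 or more Negative fragments, and those after it lay near Gtf3c4 (21 Negative fragments), Impg1 (20), Cryz (17) and Supt4a (14). In 4 of these 5 clusters 1 end was fixed.

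**Figure D4:**
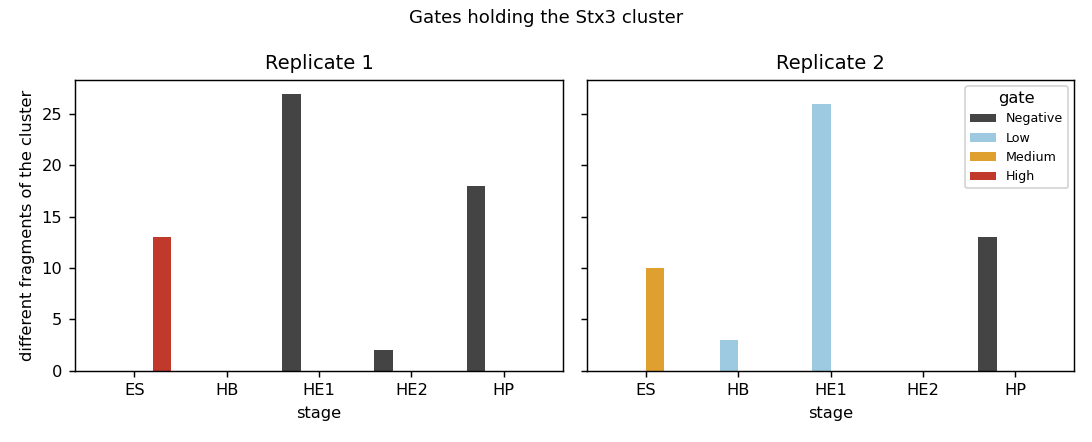
Bars count the different fragments of the Stx3 cluster in each gate (colour) at each stage, 1 panel per replicate. The cluster is in positive gates at ES, with 13 and 10 fragments, and in the Negative gate at HP, with 18 and 13.

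Summed over each list, neighbourhoods of genes that mark the stages were found in the Negative lists at near the share of all neighbourhoods. The 15 pluripotency genes had 201 Negative fragments (23.5% of all fragments near them), the 15 mesoderm genes 189 (23.7%), the 20 endothelial genes 366 (25.1%), the 20 hematopoietic genes 345 (23.6%), the 20 genes of AP-1, TEAD and SMAD signalling 538 (24.2%) and 15 neuronal genes, taken as off-lineage, 125 (25.4%). All of these sums were near the 23.2% over all neighbourhoods. Single genes differed. Those with any Negative fragment numbered 12, 12, 19, 17, 18 and 13 in the same order of lists. Cebpa had 0 Negative and 24 positive fragments and Sall4 0 and 14, while Mef2c had 9 and 5. None of the tested members, 3, 3, 7, 8, 10 and 2 of these lists in the same order, passed either trend test, against 0% of all neighbourhoods for the level and 0.0790% for the balance. The median log2 change of the level per stage was 0.20 for pluripotency, 0.13 for mesoderm, 0.00 for endothelial, 0.03 for hematopoietic, -0.11 for signalling and -0.03 for neuronal genes, beside 0.05 over all tested.

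Among pluripotency genes, Klf4 had 10, 12, 22, 9 and 4 Negative fragments from ES to HP of replicate 1 and 2, 2, 2, 3 and 9 in replicate 2, so that no stage lacked them. Klf2 (25 in all), Nr5a2 (24) and Esrrb (18), further factors of the ES cell network, followed. Of the mesoderm genes, Kdr, which encodes FLK1, had 1, 3, 28, 4 and 6 in replicate 1 and 1, 1, 1, 1 and 2 in replicate 2, and was again in all 10 lists. Hand1 had 41, Mesp1 29 and Wnt3 19. Among endothelial genes Ets1 led with 79, followed by Cdh5 (47, VE-cadherin), Sox17 (43) and Flt1 (36, a VEGF receptor). Sox17 had 11, 5, 20, 2 and 1 in replicate 1 and 0, 1, 0, 0 and 3 in replicate 2, with an estimate of -0.24 ± 0.28 (SE) per stage.

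Of the hematopoietic genes, Meis1 had 67 Negative fragments, Runx1 57, Itga2b (CD41) 34 and Gata2 28. Runx1 had 1, 8, 21, 2 and 8 from ES to HP in replicate 1 and 1, 1, 1, 2 and 12 in replicate 2, with an estimate of 0.31 ± 0.24 (SE) per stage on the log2 scale. Raw numbers at Runx1 were highest at HE1 of replicate 1 and HP of replicate 2, the deepest lists of each replicate. The AP-1 gene Fos had the second deepest Negative neighbourhood, with 134 fragments, after Arhgap23 with 139. Fos held 23, 18, 57, 11 and 13 in replicate 1 and 2, 0, 2, 1 and 7 in replicate 2, and 25.0% of its fragments were Negative. Smad6 (57), an inhibitor of BMP signalling, Smad3 (54), a signal transducer of the TGF-beta pathway, and Tead1 (50) followed. Among neuronal genes Ntm led with 45, of which 36 were in replicate 2, and its Negative share of 43.3% was above that of Snap25 (22 fragments, 27.5%) and Nlgn1 (10, 19.6%).

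**Figure D5:**
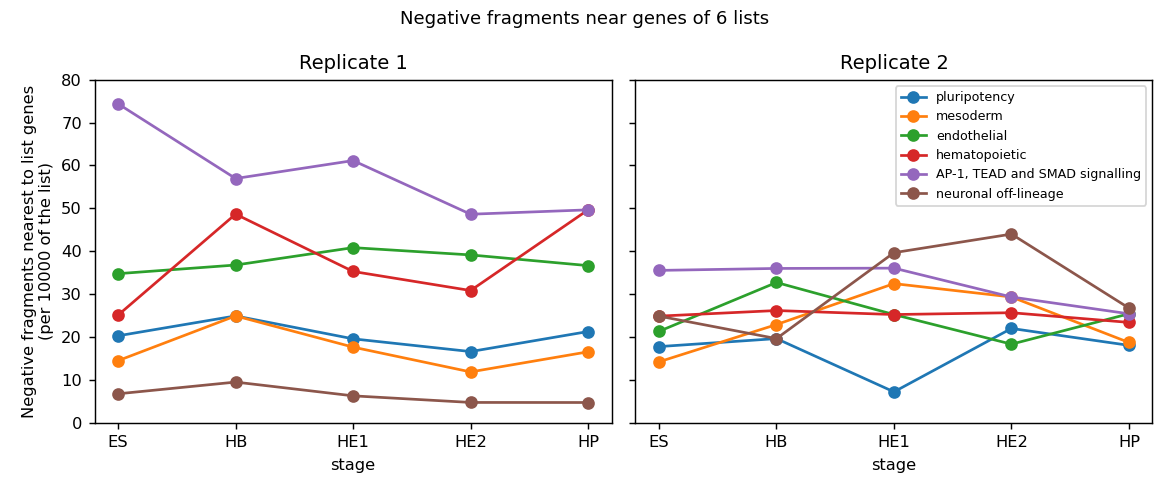
Lines give the Negative fragments whose nearest start belongs to a list gene, per 10000 fragments of the Negative list, at each stage and in each replicate. The signalling list runs at 48.6 to 74.4 in replicate 1, and neuronal genes are higher in replicate 2 (19.6 to 44.0) than in replicate 1 (4.73 to 9.49).

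The sums over lists were set side by side for both ends of the time course. Pluripotency genes had 20.3 Negative fragments per 10000 at ES and 21.3 at HP in replicate 1, and 17.8 and 18.1 in replicate 2. Hematopoietic genes had 25.1 at ES and 49.7 at HP in replicate 1, but 24.9 and 23.4 in replicate 2. The signalling genes had 74.4 at ES and 49.7 at HP in replicate 1, and 35.5 and 25.4 in replicate 2. Mesoderm genes had 14.5 and 16.6 in replicate 1, and 14.2 and 18.7 in replicate 2. Endothelial genes had 34.8 and 36.7, and 21.3 and 25.4. Neuronal genes had 6.76 and 4.73, and 24.9 and 26.8. The hematopoietic list was thus higher at HP than at ES in replicate 1 only, where HB had 48.7 and HE2 30.8. By these rates the signalling list was lower at HP than at ES in both replicates, and the pluripotency, mesoderm and endothelial lists were higher in both. At ES of replicate 2 the rates rested on 10 signalling, 5 pluripotency, 4 mesoderm and 6 endothelial fragments, too few to give a firm direction. These sums are descriptions, with no test.

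No measure of the make-up of the Negative lists passed a test along the stages. Of 16 measures of base composition, length, place and motif content, 0 passed a two-sided exact permutation test of the slope after Benjamini-Hochberg adjustment (0%), with a lowest adjusted p of 0.136, and 4 had an unadjusted p under 0.05. These were mean GC content, which changed by -0.53 percentage points per stage in replicate 1 and -0.11 in replicate 2, the share in introns (1.48 and 0.79 points), the share between genes (-0.83 and -0.75 points) and the share with the PU.1 letters in the central 100 bases (0.25 and 0.04 points). The intron share ran from 39.2% at ES to 44.5% at HP in replicate 1 and from 43.2% to 47.0% in replicate 2. In that window, RUNX letters were present in 7.05 to 9.42% of the Negative fragments of replicate 1 and 7.32 to 8.4% of those of replicate 2, beside 7.95% of all fragments. AP-1 letters were present in 3.51 to 6.58% in replicate 1 and 2.13 to 3.19% in replicate 2, beside 4.88% of all fragments.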

How the data were processed

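The insert libraries of the 10 Negative sorts and of the 30 positive lists were used. Read pairs were trimmed (Trim Galore) and mapped to mm10 (Bowtie2) by the authors, who kept proper pairs of mapping quality over 40 with SAMtools and reduced repeated fragments to 1, after 25 to 30 PCR cycles. The deposited values are coordinates in base pairs without counts, so depth is the number of fragments, and PCR variants of 1 molecule can count as several fragments. Of each Negative list, 1.78 to 2.65% in replicate 1 and 0.733 to 0.949% in replicate 2 lay within 1500 bp of an annotated start. The lists thus held almost only distal fragments, which bears on the shares and distances given above. The paper describes filters on background and on open chromatin of the stage, before fragments were split into promoter and distal ones. Whether the deposited lists had passed all of these is not given in the sources used here.

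Fragments were identical when both ends matched. Starts, exons and introns came from curated RefSeq transcripts on GRCm38, and 8 Negative fragments on scaffolds were left out of annotation. A fragment was placed by its centre, and the nearest start is no statement about its target. Neighbourhoods were tested with limma 3.58.1 (R 4.3.3) on log2 of fragments per 10000 with a pseudocount of 1, or on the log2 balance with an offset of 0.5, over neighbourhoods with at least 20 fragments of each kind used. Other tests were exact permutations in Python 3.11.15 with numpy 2.4.6. Both were tested on simulated data. Wilson intervals (95%) and the limit that 0 fragments allow (3 counts) include no error beyond counting. Named fragments were, of those in the most Negative lists of 1 replicate, the ones with the most over both and then the fewest positive lists, named regions the most Negative lists, and dropped items the most later positive lists or early Negative fragments. Trend genes were the called ones or the 3 of lowest p in each direction, and list genes the 4 with most Negative fragments. The members and lists were chosen with earlier results of these data known. The alternatives were each list left out, ends within 5 bases, the Ochiai index, thinning, other filters and offsets, and the replicate block. The replicate numbers were taken to pair the samples, on the assumption that all stages of a replicate come from 1 transfected pool. Deviations from stage means correlated by 0.218 to 0.633 between lists of replicate 1. Some items that these rules chose are not reported here.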

Additional observations from a re-analysis of the deposited data

How the results depend on the processing

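Within the alternatives run, the sharing of successive stages was 5.02 to 11.9 percentage points without single lists, except without HE2 of replicate 2 (-0.0250), and 6.11 to 6.33 with near-identical ends, thinned lists or the Ochiai index. The excess of Negative over positive sharing was 3.58 to 6.95 without single lists. Sharing within over between replicates was 11.6 to 20.9, with p at its smallest possible value throughout. Recurrence of regions at the same stage was -0.0502 to 0.0991 without single lists. The gate kept at the next stage gave 14.6 to 24.4 without single lists. Chosen after seeing the data, it gave 10.6 for regions and 25.2 without HE1 and HP of replicate 1. In the paired analysis with a replicate block, 0 neighbourhoods were called by limma for level, with 93 at an unadjusted p under 0.05 against 23 without the block, and 1 for balance. The balance count was 0 with an offset of 2 and, chosen after seeing the data, 0 with near-identical fragments collapsed. It was 0 to 1 without single lists, 0 without ES or HP of either replicate. The neighbourhood and composition counts were 0 in every alternative run. The cause of these changes was not tested. Depth limited the gene tests to the 1269 of 13134 neighbourhoods that held enough Negative fragments.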
